A study of Mus musculus with 6 samples.

Results

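The Th17 lineage genes described here are Il17a, Il17f, Il22, Rora, Il23r, Ccr6, Il1r1, Il6ra and Il6st. They were taken by their listed symbols from the gene names of a count matrix and of the single-library tables. All 9 were found among the 35602 genes of the matrix and among the 34714 genes of the single-library tables.

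RNA was sequenced from mouse splenic CD4+ T cells activated with antibodies to CD3 and CD28, to compare cells given MAPK13-inhibitors with cells given their solvent, DMSO. MAPK13 is the delta form of p38 MAP kinase, and the inhibitor is the compound MAPK13-IN-1. Each group had 3 libraries. Replicates 2 and 3 of both groups form the count matrix, at totals of 26874805 and 28487403 counts for DMSO and 33854760 and 32617702 for MAPK13-inhibitors. The labels of these 4 libraries give WT cells and 17.1 µM inhibitor or 0.1 µl DMSO, added to the medium after day 1 of culture. The labels of the replicate 1 pair give the tissue, the cells and the treatment, without a dose or a day of addition. Stimulation of 72 h is listed for this pair as for the other libraries. The study's figure legend gives 17.1 µM inhibitor for its RNA-seq cells without naming libraries. The design text of the whole series gives 72 h of stimulation with inhibitor or DMSO present, which differs from an addition after day 1, and which of these holds for which libraries is not clear. The labels and the design text name no polarizing cytokine for these cultures. The study's methods name the mouse strains it obtained, without saying which gave the cells of these cultures. Age and pooling of animals are not given in the sources used here.

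Th17 cells are CD4+ T cells that defend mucosal surfaces against extracellular bacteria and fungi and that take part in autoimmune inflammation. In mice they arise when activated CD4+ T cells receive TGF-β together with IL-6, which signals through STAT3, and IL-23 and IL-1 then sustain them. Their products IL-17A, IL-17F and IL-22 act mainly on epithelial and stromal cells, which answer with antimicrobial peptides and neutrophil-attracting chemokines.

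The replicate 1 pair stood apart from the other libraries and is given separately throughout. A strand-specific mRNA kit was used for it, and poly-T beads for the count libraries. Its tables hold values that are not whole numbers and name no unit. They are read here as FPKM (fragments scaled to transcript length and library size), because they sum to 405150 and 390729. Their depth is unknown, so no counting error can be given for them. Kit, processing and any other difference between both sets of libraries cannot be told apart.

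Markers of CD4+ T cells were present in every library, but the count libraries also held B cell markers. Per exon length, Cd79a, a signalling chain of the B cell receptor, stood at 182% and 170% of Cd4 in the DMSO count libraries and at 209% and 192% in the MAPK13-inhibitors count libraries. In the replicate 1 pair it stood at 7.98% of Cd4 with DMSO and 3.73% with MAPK13-inhibitors. Pax5, the transcription factor that holds B cell identity, stood at 29.5% and 27.8% of Cd4 in the DMSO count libraries, at 44.8% and 43.6% in the MAPK13-inhibitors count libraries, and at 2.20% and 0.868% in the replicate 1 pair. The study's methods name a kit that isolates CD4+ T cells from spleen, a step that would remove B cells, so these values go against the label of the count libraries. In RNA from bulk samples, fewer cells of a type and less RNA per cell cannot be told apart.

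In the count libraries the Th17 lineage genes did not move as a group. Rora, Il17f and Il23r were higher with MAPK13-inhibitors, Il22, Il17a and Il6ra were lower, and Ccr6, Il1r1 and Il6st were not called. Groups were tested 2 libraries against 2 over 16269 genes by edgeR quasi-likelihood, with Benjamini-Hochberg adjusted p-values, and a gene was called at an adjusted p under 0.05. It called 6 of the 9 genes, against 63.8% of all genes tested. In each direction it called 3 of 9, against 31.5% of all genes higher and 32.3% lower. The libraries of the groups did not overlap for 6 of the 9, against 83.0% of all genes. The share called lies near the background and the share without overlap below it, so neither is a result about Th17 genes. The labels do not say that the libraries came from separate cultures or animals, so these p-values measure only the spread between these samples, which may be technical.

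All 9 genes passed the filter on low counts, which asks for 0.327 CPM (counts scaled to library size, here before TMM scaling) in at least 2 libraries. Il17a reached that level in the DMSO libraries alone, and Il23r in the MAPK13-inhibitors libraries alone. Each of them could pass only through the group where it was high, so their calls add nothing to a count of members. With a minimum of 10 counts in every library, 7 genes were tested and 4 were called, 2 in each direction, against 65.8% of the 14166 genes tested that way.

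**Figure D1:**
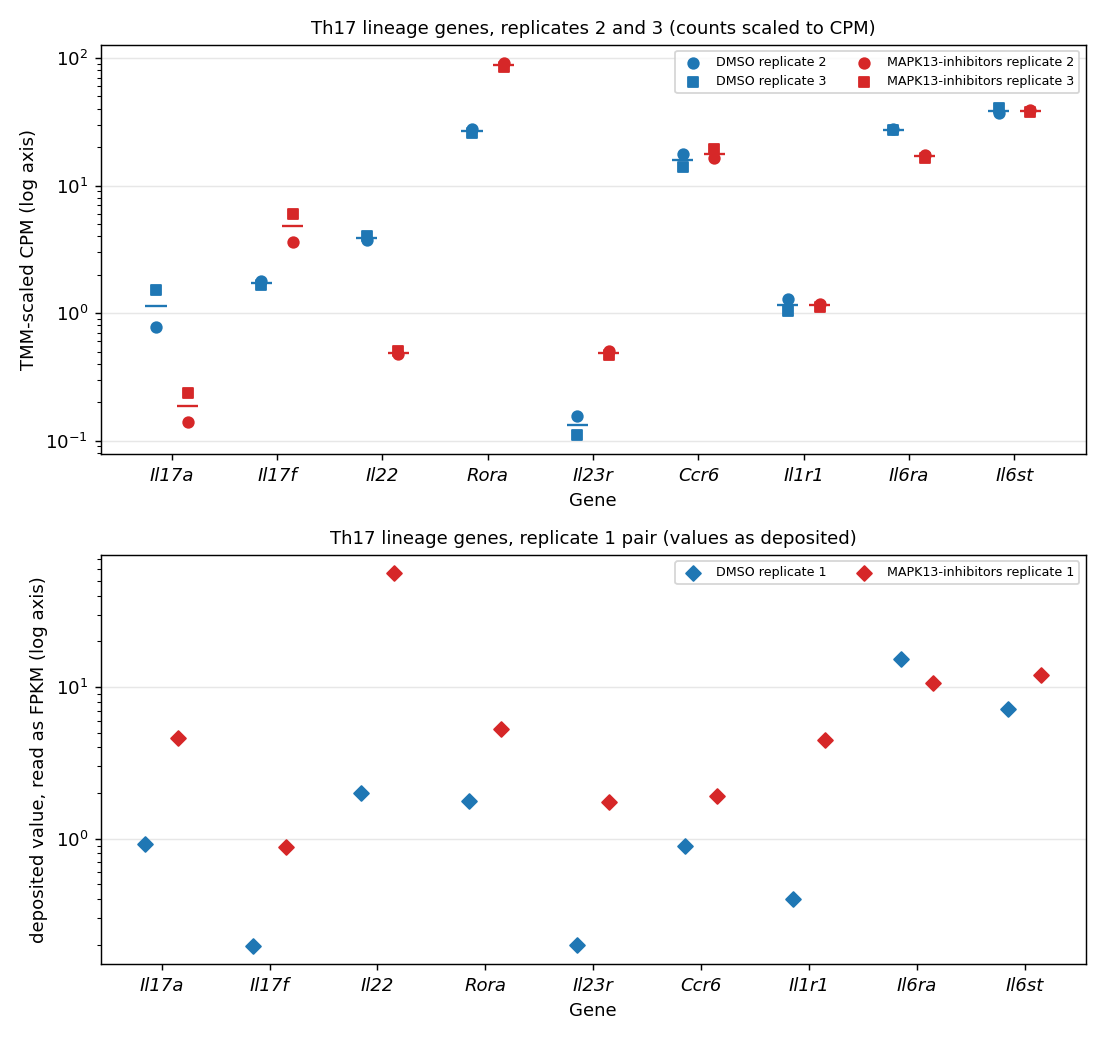
Levels of the 9 Th17 lineage genes in each library on log axes, with DMSO in blue and MAPK13-inhibitors in red. The upper panel gives TMM-scaled CPM in replicates 2 and 3 with horizontal lines at the group means, and the lower panel gives the replicate 1 pair in FPKM. Il22 lay near 0.5 CPM in both MAPK13-inhibitors count libraries, below 3.72 and 4.04 CPM with DMSO, and at 56.1 FPKM with MAPK13-inhibitors in the replicate 1 pair.

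The cytokine genes moved in opposite directions. Il17a encodes the signature cytokine of the lineage, which draws neutrophils through epithelial chemokines. It had 20 and 41 counts with DMSO and 5 and 8 with MAPK13-inhibitors, or 0.776 and 1.51 against 0.141 and 0.236 TMM-scaled CPM. Both MAPK13-inhibitors libraries lay below both DMSO libraries, with no overlap. The log2 fold change was −2.59 (SE 0.516, 95% interval −3.73 to −1.44, edgeR quasi-likelihood and Benjamini-Hochberg adjusted p = 0.00132), 6.0-fold lower. The depth behind it is small, and the counts of both groups give a ratio of 0.163 with an exact binomial 95% interval of 0.0820 to 0.299. Such intervals cover counting error only, since amplified reads without molecular identifiers are not independent molecules.

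Il17f, whose product pairs with IL-17A or with itself and acts through the same receptor, had 46 and 45 counts with DMSO and 128 and 202 with MAPK13-inhibitors. These were 1.78 and 1.65 against 3.61 and 5.96 CPM, so the groups did not overlap although the treated libraries differed from each other. The log2 fold change was 1.47 (SE 0.273, 95% interval 0.87 to 2.08, edgeR quasi-likelihood and Benjamini-Hochberg adjusted p = 0.000813), 2.78-fold higher. Il17a and Il17f are neighbours, 42.6 kb apart. Il17f was called higher and Il17a lower, but Il17a passed the filter through the DMSO libraries alone. Its call could only be lower, so nothing is read from this contrast of calls.

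Il22 encodes a cytokine of the IL-10 family that acts on epithelial repair and defence. It had 96 and 110 counts with DMSO and 17 in each library with MAPK13-inhibitors, or 3.72 and 4.04 against 0.479 and 0.502 CPM. Its groups lay farther apart than those of Il17a and spread less within each group. The log2 fold change was −2.98 (SE 0.270, 95% interval −3.57 to −2.38, edgeR quasi-likelihood and Benjamini-Hochberg adjusted p = 5.54e-06), 7.87-fold lower.

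Rora encodes RORα, a nuclear receptor that promotes Th17 differentiation. It had 720 and 706 counts with DMSO and 3232 and 2900 with MAPK13-inhibitors, or 27.9 and 26.0 against 91.1 and 85.6 CPM. Every treated library lay above every DMSO library. The log2 fold change was 1.71 (SE 0.0768, 95% interval 1.54 to 1.88, edgeR quasi-likelihood and Benjamini-Hochberg adjusted p = 7.32e-08), 3.28-fold higher. Of the 9 genes it had the smallest standard error. Rora and Il17f were thus higher and Il22 lower in these libraries. Il17a was lower too, but it passed the filter through the DMSO libraries alone and could only be called lower. Rora, Il17f, Il22 and Il17a were all higher in the replicate 1 pair. A relation between Rora and the cytokine genes was not tested.

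Of the receptor genes, Il6ra was called lower, Il23r was called higher from few counts, and Il1r1, Il6st and Ccr6 were not called. Il23r encodes the subunit that gives the IL-23 receptor its specificity and that differentiated Th17 cells display. It had 4 and 3 counts with DMSO and 18 and 16 with MAPK13-inhibitors, or 0.155 and 0.110 against 0.507 and 0.472 CPM. In the DMSO libraries this was close to the level of 3 counts, 0.116 and 0.110 CPM. The ratio of the counts was 3.71 with an exact binomial 95% interval of 1.62 to 9.92. The fit gave a log2 fold change of 1.86 (SE 0.565, 95% interval 0.60 to 3.11, edgeR quasi-likelihood and Benjamini-Hochberg adjusted p = 0.0147). That call was lost with DESeq2, where the Benjamini-Hochberg adjusted p was 0.136. It was also lost in edgeR when any library was left out, at adjusted p of 0.0633 and 0.129 without DMSO replicates 2 and 3, and 0.106 and 0.0722 without MAPK13-inhibitors replicates 2 and 3. Over its 9 alternatives the adjusted p ranged from 0.0102 to 0.136.

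Il6ra encodes the receptor chain that binds IL-6. It had 721 and 736 counts with DMSO and 622 and 562 with MAPK13-inhibitors, or 28.0 and 27.1 against 17.5 and 16.6 CPM. The groups did not overlap, and the 2 libraries within each group differed little. The log2 fold change was −0.69 (SE 0.0946, 95% interval −0.90 to −0.48, edgeR quasi-likelihood and Benjamini-Hochberg adjusted p = 0.000107), 1.61-fold lower.

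Il6st encodes gp130, the signalling chain that IL-6 shares with other cytokines of its family. It had 951 and 1098 counts with DMSO and 1402 and 1270 with MAPK13-inhibitors, or 36.9 and 40.4 against 39.5 and 37.5 CPM. Its groups overlapped, and the 95% interval of its log2 fold change ran from −0.19 to 0.18 (edgeR quasi-likelihood and Benjamini-Hochberg adjusted p = 0.961). The interval of Il6st lay above that of Il6ra, but the difference between both chains was not tested.

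Il1r1 encodes the signalling receptor for IL-1, which supports early Th17 differentiation. It had 33 and 28 counts with DMSO and 42 and 38 with MAPK13-inhibitors, or 1.28 and 1.03 against 1.18 and 1.12 CPM. The treated libraries lay between the DMSO libraries. At this depth the 95% interval of the log2 fold change was −0.70 to 0.70, so a change of smaller size was not detectable.

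Ccr6 encodes the receptor for the chemokine CCL20, which guides Th17 cells to mucosal and inflamed tissue and is also found on B cells. It had 456 and 384 counts with DMSO and 585 and 651 with MAPK13-inhibitors, or 17.7 and 14.1 against 16.5 and 19.2 CPM. The groups overlapped, with a log2 fold change of 0.17 (95% interval −0.13 to 0.46, edgeR quasi-likelihood and Benjamini-Hochberg adjusted p = 0.289). Without MAPK13-inhibitors replicate 2 it was called higher, at 0.27 and an adjusted p of 0.0276 by the same edgeR test, and over all alternatives the adjusted p ranged from 0.0276 to 0.986.

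**Figure D2:**
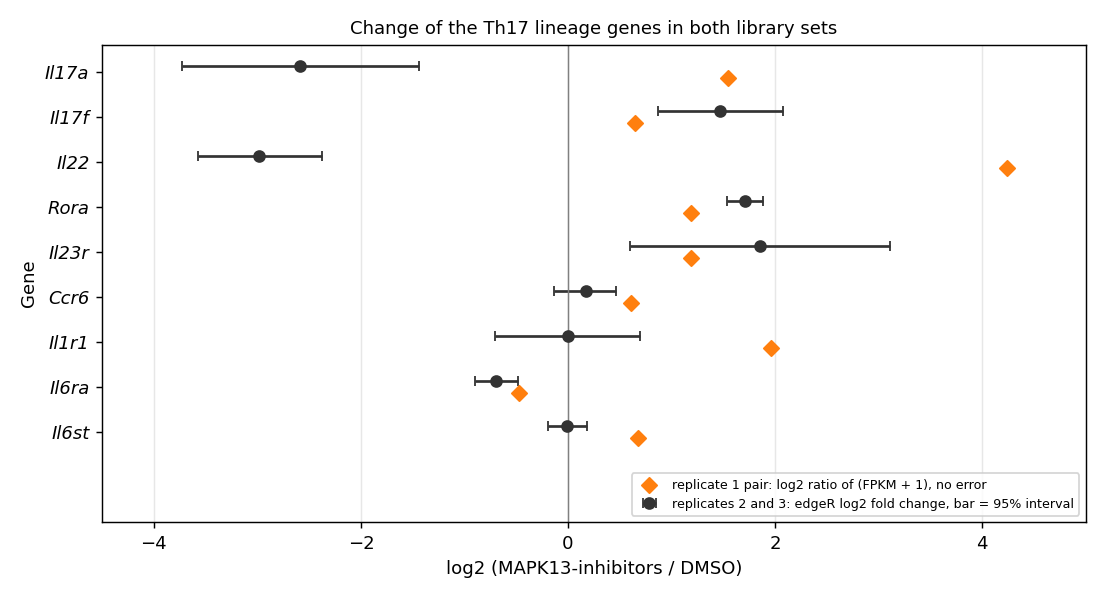
Change of each Th17 lineage gene with MAPK13-inhibitors relative to DMSO on the log2 scale. Black points give the edgeR log2 fold change of replicates 2 and 3 with 95% intervals, and orange diamonds the log2 ratio of the replicate 1 pair with a pseudocount of 1 and no error. Il17a and Il22 lie left of 0 in the count libraries, at −2.59 and −2.98, and right of it in the replicate 1 pair, at 1.55 and 4.24.

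In the replicate 1 pair, 8 of the 9 genes were higher with MAPK13-inhibitors and Il6ra was lower. Of the 33878 genes found in both sets of libraries, 13378 were higher and 8077 lower. Counts of higher and lower genes in this pair, also those of lists and markers below, are read against that upward tilt. There was 1 library per group, so these differences have no replicate check and no p-value. Log2 ratios were taken after adding a pseudocount of 1 FPKM, which understates the change of genes with low values. Past 2-fold on that scale were 5 of the 9 genes, all higher, against 2.36% of all 34714 genes higher and 0.634% lower. Of the 11510 genes at 1 FPKM or more in either library, 7.12% were past 2-fold higher and 1.91% lower, and 8 of the 9 genes were in that set. Il17a, Il23r, Il1r1 and Ccr6 reached 1 FPKM with MAPK13-inhibitors alone and so could enter that set only by being higher, and Il17a, Il23r and Il1r1 are 3 of the 5 genes past 2-fold. Nothing is read from these counts about the 9 genes. Markers of NK cells, CD8+ T cells and macrophages were higher in the same pair, with values given beside those lists. Among the NK cell and macrophage markers only Eomes reached 1 FPKM. The part of these markers in the values of the 9 genes was not tested.

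Il22 had 2.01 FPKM with DMSO and 56.1 with MAPK13-inhibitors, a ratio of 27.8 and a log2 ratio of 4.24. Il1r1 had 0.403 and 4.46 FPKM (log2 ratio 1.96), and Il17a had 0.922 and 4.63 FPKM (log2 ratio 1.55). The cytokine genes that were lower in the count libraries were thus higher in this pair. Rora, at 1.76 and 5.29 FPKM, and Il23r, at 0.199 and 1.75 FPKM, each had a log2 ratio of 1.19. Il17f had 0.197 and 0.882 FPKM (0.65). With a pseudocount of 0.1 in place of 1, the log2 ratio was 1.73 for Il17f, 2.62 for Il23r and 3.18 for Il1r1, so their size depends on that choice. Il6st had 7.15 and 12.0 FPKM (0.68) and Ccr6 had 0.899 and 1.91 FPKM (0.61). Il6ra had 15.2 and 10.7 FPKM (−0.47). Rora, Il17f and Il23r were therefore higher and Il6ra lower in both sets of libraries.

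Il17a and Il22 went past 2-fold in the opposite direction to their calls in the count libraries. Among all 10193 called genes that the single-library tables also list, 211 did so, or 2.07%. Il17a passed the count filter through the DMSO libraries alone, so its call there could only be lower, while Il22 passed it in both groups. Whether the effect of the inhibitor differed between both sets of libraries was not tested.

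Mapk13, the gene of the inhibited kinase, was itself measured in every library. It had 79 and 74 counts with DMSO and 21 and 51 with MAPK13-inhibitors, with a log2 fold change of −1.47 (SE 0.363, edgeR quasi-likelihood and Benjamini-Hochberg adjusted p = 0.00490). In the replicate 1 pair it had 0.191 FPKM with DMSO and 3.28 with MAPK13-inhibitors. An inhibitor acts on the protein, so these transcript levels do not check the labels.

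Levels can be compared between genes only per length, as RPKM (TMM-scaled CPM per kilobase of all annotated exons) in the count libraries. With DMSO, Ccr6 led at 6.85 RPKM ± 1.09 (SD, n = 2). Il22 (3.50 ± 0.205) and Il6st (3.48 ± 0.223) overlapped and could not be ranked. Il6ra (3.18 ± 0.0734) and Rora (2.06 ± 0.106) followed, then Il17a (0.975 ± 0.442) and Il17f (0.850 ± 0.0452), which overlapped. The lowest levels were those of Il1r1 (0.181 ± 0.0278) and Il23r (0.0533 ± 0.0127). Ccr6, Il6st, Il6ra, Il22 and Rora thus stood above both IL-17 genes in the DMSO count libraries, and Il1r1 and Il23r below them. In the DMSO library of replicate 1, Ccr6 (0.899 FPKM) lay below Il17a (0.922). Il1r1 (0.403) and Il23r (0.199) were not below Il17f (0.197) there.

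With MAPK13-inhibitors the order was Ccr6 (7.69 ± 0.832), Rora (6.76 ± 0.296) and Il6st (3.47 ± 0.129). Next came Il17f (2.37 ± 0.824) and Il6ra (1.97 ± 0.0769), which overlapped. Il22 (0.442 ± 0.0145), Il23r (0.197 ± 0.00994), Il1r1 (0.181 ± 0.00688) and Il17a (0.161 ± 0.0575) came last. Il17a, at 0.120 and 0.202 RPKM, overlapped Il1r1 and Il23r and could not be ranked against them. Il17f therefore stood above Il17a in both MAPK13-inhibitors count libraries, at 1.78 and 2.95 RPKM. In the replicate 1 pair Il17a stood above Il17f under both treatments, Il6ra had the highest value of the 9 genes with DMSO, and Il22 the highest with MAPK13-inhibitors.

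The genes are spread over the genome. In the GENCODE M21 annotation of GRCm38, the build the count files use under its name mm10, Il17a lies at chr1:20730905-20734496 on the plus strand and Il17f at chr1:20777146-20790617 on the minus strand. Il1r1 is on the same chromosome, at chr1:40225080-40317257. The others are Il22 at chr10:118204942-118210047, Rora at chr9:68653786-69388246, Il23r at chr6:67422932-67491855, Ccr6 at chr17:8236043-8257141, Il6ra at chr3:89864059-89913196 and Il6st at chr13:112464070-112510086. All are protein-coding. An antisense gene, Gm15511, overlaps Rora and had 1 count in DMSO replicate 2 and 0 in the other count libraries. Gm42809 is antisense to Il6ra and Gm38070 overlaps Il1r1 on its strand, and neither was analysed here. Whether the counting used strand is not given in the sources used here, so reads from Il6ra and from Gm42809 cannot be told apart. Reads from the overlap of Il1r1 and Gm38070 could not be told apart by strand in any case.

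Promoter sequences from RefSeq (GRCm38.p6) were matched for all 9 genes, with the 250 bases before each start searched on both strands for short motifs. TGANTCA (AP-1 and BATF) occurs in 6.75% of 32851 mouse promoters of that length, TTCNNNGAA (STAT) in 7.02%, AGGTCA (the core bound by ROR factors) in 14.0%, CTTTGA (TCF and LEF) in 13.8% and TTTCC (NFAT) in 55.6%. A match describes the letters and is not a shown binding site. The promoters of the neighbours Il17a and Il17f, and of Il23r, which has 2 AGGTCA matches, are printed here 5′ to 3′ on the strand of the gene, with matches in capitals. They lie at chr1:20730655-20730904 (plus strand), chr1:20784271-20784494 (minus strand) and chr6:67491856-67492105 (minus strand), outside annotated exons. Another 26 bases of the Il17f window lie in an exon of a longer Il17f transcript and are left out.
Il17a: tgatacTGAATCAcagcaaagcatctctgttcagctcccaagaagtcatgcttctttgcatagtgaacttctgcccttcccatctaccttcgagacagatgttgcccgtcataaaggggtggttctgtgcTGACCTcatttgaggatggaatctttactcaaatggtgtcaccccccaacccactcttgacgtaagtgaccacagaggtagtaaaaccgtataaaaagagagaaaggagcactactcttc
Il17f: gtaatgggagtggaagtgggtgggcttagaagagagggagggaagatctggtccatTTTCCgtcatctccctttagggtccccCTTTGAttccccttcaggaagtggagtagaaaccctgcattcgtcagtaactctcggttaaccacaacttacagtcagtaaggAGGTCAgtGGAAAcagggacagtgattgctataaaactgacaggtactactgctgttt
Il23r: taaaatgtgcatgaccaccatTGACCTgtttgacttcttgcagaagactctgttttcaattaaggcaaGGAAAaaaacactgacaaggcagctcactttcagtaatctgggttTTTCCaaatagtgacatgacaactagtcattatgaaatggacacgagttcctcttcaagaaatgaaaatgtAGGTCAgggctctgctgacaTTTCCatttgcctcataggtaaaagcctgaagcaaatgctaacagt

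The capitals mark 1 TGANTCA match from base −244 to −238 and 1 AGGTCA match (read on the other strand) from −120 to −115 in the Il17a promoter, counted back from the start. Il17f has 1 AGGTCA match from −58 to −53, 1 CTTTGA match from −141 to −136 and 2 TTTCC matches. Both IL-17 promoters thus hold the AGGTCA core, and TGANTCA was found in that of Il17a only. Il23r has AGGTCA matches from −229 to −224 and from −66 to −61 and 3 TTTCC matches. The first of 2 windows of Ccr6 holds 2 TTCNNNGAA matches, from −157 to −149 and from −120 to −112, of which the former overlaps a CTTTGA match and the latter a TTTCC match, and 1 AGGTCA match.

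The genes most like each member over the 4 count libraries were found among 13378 genes by the Euclidean distance of log2 (TMM-scaled CPM + 0.5), centred per gene. The added 0.5 narrows the differences of genes at low levels, so the genes nearest to Il23r had log2 fold changes of 0.64 to 0.66 against its own 1.86. Those nearest to Il17a had −1.79 to −1.39 against −2.59, and those nearest to Il22 had −2.46 to −2.2 against −2.98. Nearest to Rora were Myo1a (distance 0.0432), Slc8b1 (0.0494) and Rasgef1a (0.0497), and nearest to Il22 were Alg3 (0.0292), 5033421B08Rik (0.0423) and AA467197 (0.0568). Il17f was nearest to Sdc1 (0.0853), Hmgcll1 (0.0982) and Nid2 (0.111), and Il17a to 1700007L15Rik (0.0860), Nags (0.132) and 5830444B04Rik (0.175). Il17a and Il17f thus had the least close neighbours. Their counts per library were few, at 5 to 41 for Il17a and 45 to 202 for Il17f, and what sets these distances was not tested. Il6ra was nearest to Psmd6 (0.0175), Chic2 (0.0227) and Hp1bp3 (0.0255), and Il23r to Rcbtb1 (0.0200), Usp45 (0.0227) and Thoc2 (0.0270). Among the genes not called, Ccr6 was nearest to Igf2bp2 (0.0272), Adat2 (0.0527) and Ube4bos3 (0.0560), Il1r1 to Klhl7 (0.0243), Mpc1 (0.0298) and Uevld (0.0301), and Il6st to Nfyc (0.0146), Tnni3 (0.0218) and Casp1 (0.0220).

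Around these genes, the cytokines that induce or sustain Th17 cells were lower in the count libraries. All 5 tested of 6 listed were called lower, against 32.3% of all genes, with a median log2 fold change of −2.99 against 0.01 for all genes tested. That median is the value of Il1b, which passed the filter through the DMSO libraries alone. With at least 10 counts in every library, 4 were tested and all 4 were lower, against 4716 of the 14166 genes tested that way. Il23a, the subunit particular to IL-23, had 737 and 880 counts with DMSO and 39 and 60 with MAPK13-inhibitors (−4.41, edgeR quasi-likelihood and Benjamini-Hochberg adjusted p = 3.73e-08). Il6 had 115 and 155 against 18 and 21 counts (−3.17, adjusted p = 3.36e-06 by the same edgeR test). Tgfb1 had 5310 and 6062 against 3366 and 3566 counts (−1.10, adjusted p = 5.28e-07 by the same edgeR test). The replicate 1 pair also had lower values of these 3 genes with MAPK13-inhibitors, at 3.86 against 10.9 FPKM for Il23a, 3.79 against 6.39 for Il6 and 72.8 against 91.9 for Tgfb1. The other called genes, Il1b (−2.99) and Il21 (−0.41), were named after their values were seen and were higher in that pair, at 3.31 against 0.415 and 86.9 against 53.3 FPKM. The untested gene, Il12b, encodes the chain IL-23 shares with IL-12 and had 0 counts in 3 of the 4 count libraries.

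Receptor chains that work beside the members split evenly. Of 6 tested, 2 were higher, 2 lower and 2 not called, against 31.5% of all genes higher and 32.3% lower, with a median of −0.03. Il12rb1, the partner chain of Il23r, had 12041 and 12963 counts with DMSO and 5287 and 5960 with MAPK13-inhibitors (−1.54, edgeR quasi-likelihood and Benjamini-Hochberg adjusted p = 1.11e-07), the reverse of the fitted direction of Il23r. Il1r2, a decoy receptor that binds IL-1 without signalling, was higher at 2543 and 2587 against 732 and 771 counts (1.38, adjusted p = 2.07e-07 by the same edgeR test). Tgfbr2, a receptor chain for TGF-β, was higher as well (0.89, adjusted p = 6.10e-07 by the same edgeR test). In the replicate 1 pair 5 of the 6 genes were higher and 1 lower, against 13378 higher and 8077 lower of all 33878 genes. Log2 ratios were −0.61 for Il12rb1, 0.99 for Il1r2 and 0.25 for Tgfbr2.

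Among signalling molecules and transcription factors of the lineage, 4 of 13 were higher, 6 lower and 3 not called, against 31.5% of all genes higher and 32.3% lower, with a median of −0.14. Maf, which drives IL-10 and other late products of Th17 cells, had 940 and 1078 counts with DMSO and 281 and 264 with MAPK13-inhibitors (−2.28, edgeR quasi-likelihood and Benjamini-Hochberg adjusted p = 7.32e-08). Junb, an AP-1 subunit that works with BATF (−0.81, adjusted p = 1.58e-06 by the same edgeR test), and Jak2, a kinase of the IL-23 receptor (−0.77, adjusted p = 6.32e-07 by the same edgeR test), were lower too. Against these, Rora was higher, so the regulators did not share a direction in the count libraries. In the replicate 1 pair 8 of the 13 genes were higher and 5 lower, against 13378 higher and 8077 lower of all 33878 genes. Log2 ratios were −0.18 for Maf, 0.47 for Junb and −0.01 for Jak2.

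Genes known to restrain the lineage were lower or not called in the count libraries. Of 12 tested, 8 were lower, against 32.3% of all genes, and 0 higher, with a median of −0.25. When libraries were scaled by their totals alone, 5 were lower, against 4302 of all 16269 genes. With at least 10 counts in every library 6 were lower, against 4716 of 14166 genes. Foxp3, the factor of regulatory T cells, had 1507 and 1648 counts with DMSO and 719 and 806 with MAPK13-inhibitors (−1.44, edgeR quasi-likelihood and Benjamini-Hochberg adjusted p = 5.90e-07). Il27ra, the receptor for the restraining cytokine IL-27 (−1.81, adjusted p = 3.98e-07 by the same edgeR test), and the repressor Gfi1 (−1.03, adjusted p = 1.47e-06 by the same edgeR test) were lower too. In the replicate 1 pair these 3 genes had log2 ratios of 0.10, −0.13 and 0.37. There 8 of the 12 were higher and 4 lower, against 13378 higher and 8077 lower of all 33878 genes. Il2, named after its values were seen, had the log2 ratio farthest from 0, at 3.36 (71.1 against 6.04 FPKM), and was lower in the count libraries (−1.80).

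Other products and cytokines of the IL-17 family were lower or not called in the count libraries. Of 8 listed, 5 were tested, 3 were lower, against 32.3% of all genes, and 0 higher, with a median of −0.80. Scaled by library totals alone, 3 were lower and 1 higher, against 4302 lower and 6176 higher of all 16269 genes. Of the 8 genes, 6 were higher and 0 lower in the replicate 1 pair, against 13378 higher and 8077 lower of all 33878 genes. Among the 6 were Csf2, at 27.5 against 3.96 FPKM, and Il9, at 131 against 65.0 FPKM. Il9, a cytokine some Th17 cells also make, had 73 and 81 counts with DMSO and 16 and 13 with MAPK13-inhibitors (−2.79, edgeR quasi-likelihood and Benjamini-Hochberg adjusted p = 1.86e-05). Csf2, which encodes GM-CSF, had 301 and 351 against 228 and 261 counts (−0.80, adjusted p = 0.000568 by the same edgeR test). Il17d had 20 and 24 against 5 and 5 counts (−2.49, adjusted p = 0.00112 by the same edgeR test). Il17d, like Il17a, passed the filter through the DMSO libraries alone. With at least 10 counts in every library 4 genes of the list were tested and 2 were lower, against 4716 of 14166 genes.

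Of 8 listed receptors of IL-17 and IL-22, 4 were tested, 3 were higher and 1 lower, against 31.5% of all genes higher and 32.3% lower, with a median of 0.99. With at least 10 counts in every library 3 were tested, 2 higher and 1 lower, against 4606 higher and 4716 lower of 14166 genes. Il17ra, the chain through which IL-17A and IL-17F act, had 2260 and 2502 counts with DMSO and 4393 and 3867 with MAPK13-inhibitors (0.41, edgeR quasi-likelihood and Benjamini-Hochberg adjusted p = 0.000354). Il17rd was higher from few counts, 151 and 98 against 20 and 15 (2.43, adjusted p = 6.86e-05 by the same edgeR test). Il10rb, the shared chain of the IL-22 and IL-10 receptors, was lower (−0.63, adjusted p = 0.000209 by the same edgeR test). In the replicate 1 pair 6 of the 8 genes were higher and 1 lower, against 13378 higher and 8077 lower of all 33878 genes. Only 2 of the 8 reached 1 FPKM in that pair. Log2 ratios were 0.35 for Il17ra, 0.16 for Il17rd (0.165 against 0.0435 FPKM) and 0.42 for Il10rb.

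Of the other gp130 partner chains and the proteases that shed the IL-6 receptor, 6 listed and 5 tested, 1 was higher, 1 lower and 3 not called, against 31.5% of all genes higher and 32.3% lower, with a median of 0.14. Adam17, which releases soluble IL-6 receptor, had 2146 and 2102 counts with DMSO and 4654 and 4226 with MAPK13-inhibitors (0.67, edgeR quasi-likelihood and Benjamini-Hochberg adjusted p = 9.40e-06). Adam10, a related protease, was lower (−0.32, adjusted p = 0.00120 by the same edgeR test). Osmr, the gp130 partner for oncostatin M, was not called at −0.64 (adjusted p = 0.131 by the same edgeR test). In the replicate 1 pair 5 of the 6 genes were higher and 1 lower, against 13378 higher and 8077 lower of all 33878 genes. Only 3 of the 6 reached 1 FPKM in that pair. Log2 ratios were 0.36 for Adam17, −0.17 for Adam10 and 0.5 for Osmr (0.484 against 0.0529 FPKM).

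**Figure D3:**
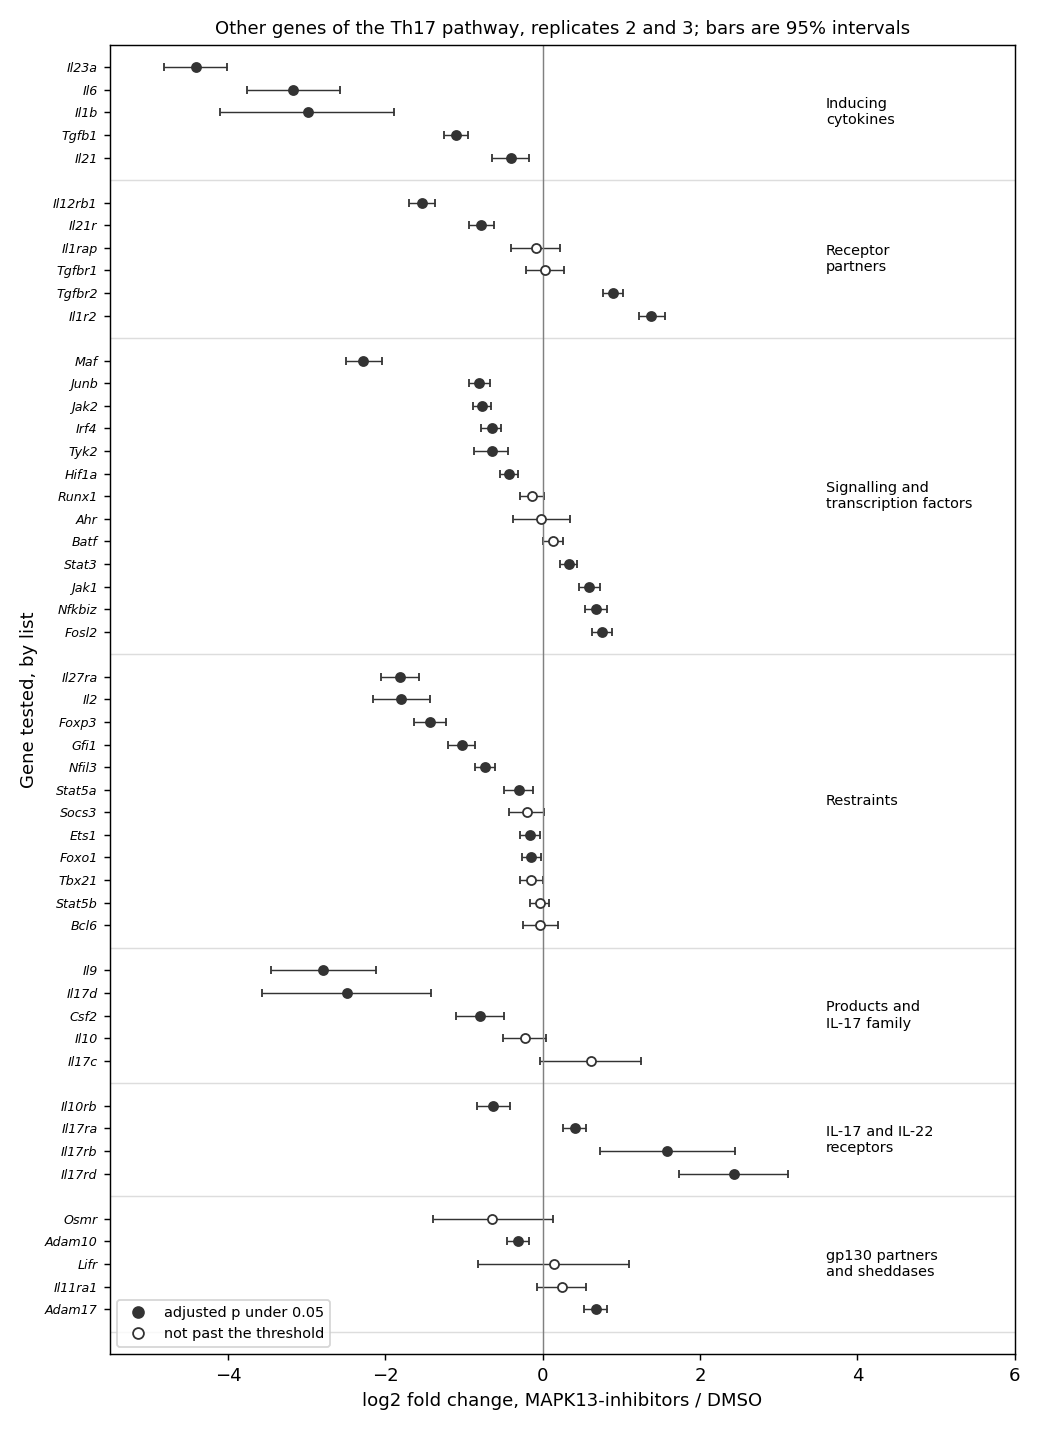
Log2 fold changes of the other Th17 pathway genes in replicates 2 and 3, grouped by list, with 95% intervals and filled points for genes at an adjusted p under 0.05. The 5 inducing cytokines all lie left of 0, from −4.41 for Il23a to −0.41 for Il21, while IL-17 receptor genes lie right of it.

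Markers of other cells moved with treatment in the count libraries. Of 7 B cell markers, 6 were higher and 1 lower, against 31.5% of all genes higher and 32.3% lower, with a median log2 fold change of 0.62. Their summed level was 884 and 858 CPM with DMSO and 1100 in each library with MAPK13-inhibitors, and none was at 0. Per length Cd79b was the most abundant, with a mean of 130 RPKM with DMSO and 146 with MAPK13-inhibitors. Pax5 (0.62), Ms4a1 (0.67) and Blnk (1.33) were higher, with edgeR quasi-likelihood and Benjamini-Hochberg adjusted p of 5.34e-06, 6.85e-06 and 2.06e-07. In the replicate 1 pair the sum was 36.5 FPKM with DMSO and 27.3 with MAPK13-inhibitors. Of 7 CD4+ T cell markers, 6 were lower, against 32.3% of all genes, and Cd4 itself was not called, with a median of −1.20 and sums of 1660 and 1700 against 903 and 1020 CPM. Per length Lck was the most abundant of them with DMSO, at a mean of 121 RPKM, and Cd4 with MAPK13-inhibitors, at 68.2 RPKM. Of the same 7 markers 3 were higher and 4 lower in the replicate 1 pair, against 13378 higher and 8077 lower of all 33878 genes. Their median log2 ratio was −0.09, with sums of 1020 FPKM with DMSO and 934 with MAPK13-inhibitors. Another 2 T cell and 4 γδ T cell markers, all constant-region genes of T cell receptors, were not analysed here.

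The remaining γδ T cell marker, Sox13, was called higher at 127 and 130 against 70 and 47 counts (0.74, edgeR quasi-likelihood and Benjamini-Hochberg adjusted p = 0.0205). Of 5 NK cell markers, 2 were tested and neither was called, against 63.8% of all genes called. All 5 together summed to 1.75 and 2.57 CPM with DMSO and 2.20 and 2.45 with MAPK13-inhibitors. Per length the most abundant was Eomes with DMSO and Klrd1 with MAPK13-inhibitors, and Ncr1 and Klre1 were at 0 in both DMSO count libraries. All 5 were higher with MAPK13-inhibitors in the replicate 1 pair, against 13378 higher and 8077 lower of all 33878 genes. They summed to 5.16 against 0.898 FPKM there. Most of that sum was Eomes, at 4.23 against 0.554 FPKM, and the others stayed below 1 FPKM. Both CD8+ T cell markers were lower, against 32.3% of all genes. Their sums were 11.7 and 10.9 against 5.49 and 7.85 CPM, and Cd8b1 was the more abundant per length. Both were higher in the replicate 1 pair, at a sum of 8.39 FPKM with MAPK13-inhibitors against 3.49 with DMSO, and so was Sox13, at 0.265 against 0.0607 FPKM.

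Macrophage markers were few but higher with MAPK13-inhibitors, with 4 of 5 tested of 7 listed called higher, against 31.5% of all genes, at a median of 2.50. Of these 4, C1qb passed the filter through the MAPK13-inhibitors libraries alone. Lyz2 (2.81), Adgre1 (2.50) and Cd14 (1.83) passed it in both groups. All 7 together summed to 2.02 and 1.73 CPM with DMSO and 11.6 and 7.76 with MAPK13-inhibitors. Per length Lyz2 was the most abundant in both groups, and C1qa was at 0 in 3 of the 4 libraries. The replicate 1 pair had higher values of all 7 with MAPK13-inhibitors, against 13378 higher and 8077 lower of all 33878 genes. Their sum was 1.64 against 0.243 FPKM there, and none of them reached 1 FPKM. Of 6 neutrophil markers only Mpo was tested. It had 17 and 16 counts against 2 and 2 and passed the filter through the MAPK13-inhibitors libraries alone, so its call (2.59) could only be upward, and S100a9 was at 0 in all 4 count libraries. The 6 summed to 0.351 FPKM with MAPK13-inhibitors and 0.538 with DMSO in replicate 1. The part of any of these markers in the levels of the Th17 lineage genes was not tested.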

How the data were processed

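For replicates 2 and 3 the authors deposited whole-number counts per gene, not normalized; fastp 0.21.0, HISAT2 2.1.0, StringTie 2.1.5 and DESeq2 1.30.1 are named in the submitters' processing notes, with genome mm10. The values the authors deposited for replicate 1 of each group are read here as FPKM, a unit inferred from the values; HISAT2 is named for their alignment. The count test used edgeR 4.0.16 under R 4.3.3 (filterByExpr, minimum count 10 and minimum total 15; TMM; quasi-likelihood test; Benjamini-Hochberg adjustment over 16269 genes). The single-library pair is given as values and log2 ratios without a test. DESeq2 1.42.0, other scalings, filters, thresholds and pseudocounts, a replicate block and leaving out each library were tried as alternatives, and the fits were tested on simulated data. Named genes are the 9 members, in each list the 3 genes of smallest p-value, the 3 nearest genes of each member and Mapk13; other genes named, such as Cd79a and further markers, were picked after their values were seen. Members and lists were chosen with earlier results of these data known. Some genes are not reported here, and list values leave them out.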

Additional observations from a re-analysis of the deposited data

Results flagged for a closer look

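Among members, pathway lists, markers and Mapk13, 64 genes were called in the count libraries and listed for replicate 1. In 7 of these 64 (10.9%) the replicate 1 pair moved past 2-fold in the direction opposite to the call in the count libraries, against 2.07% of all called genes. Il17a and Il1b passed the count filter through the DMSO libraries alone, so their calls could only be lower and nothing is read from this share. The difference between both sets of libraries was not tested, and library kit and processing cannot be told apart from it. Il22 had a log2 ratio of 4.24 in the pair and a log2 fold change of −2.98 in the count libraries. For Il17a these values were 1.55 and −2.59. Among other genes of the pathway they were 1.61 and −2.99 for Il1b, 3.36 and −1.80 for Il2, and 2.52 and −0.80 for Csf2. The CD8+ T cell marker Cd8b1 had 1.02 and −0.60, and Mapk13, the gene of the inhibited kinase, had 1.84 and −1.47. All 7 were higher with MAPK13-inhibitors in the pair and lower in the count libraries.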

How the results depend on the processing

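Il17a, Il17f, Il22, Rora and Il6ra kept their direction and their call under every alternative that tested them. Il17a and Il23r were not tested with at least 10 counts in every library. Leaving out each library in turn assumes that a lone library varies like the other group, and gave −2.99 to −2.03 for Il17a, 1.06 to 1.79 for Il17f, −3.05 to −2.92 for Il22, 1.65 to 1.75 for Rora and −0.73 to −0.66 for Il6ra. The call of Il23r was lost with DESeq2 (1.90) and without any library (1.63 to 2.1). That of Ccr6 was gained without MAPK13-inhibitors replicate 2, in a range of 0.0039 to 0.32. The cause was not tested, beyond fewer samples in the fits without a library. At a stricter threshold, an adjusted p under 0.01, the call of Il23r in the main fit was lost as well.

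Near 0 and not called, Il1r1 and Il6st changed sign. Il1r1 moved from −0.0001 to 0.01 with RLE size factors, 0.12 with library totals, 0.05 with at least 10 counts in every library, 0.01 with DESeq2 and 0.0014 with the replicate block, with −0.16 to 0.15 over left-out libraries. Il6st moved from −0.0053 to 0.0088 with RLE size factors, 0.12 with library totals, 0.04 with at least 10 counts and 0.0088 with DESeq2, with −0.08 to 0.05 over left-out libraries. Library totals alone shifted the median of all genes from 0.01 to 0.14. Restraining genes called lower fell from 8 to 5, and all genes called lower from 5252 to 4302 of 16269.

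The replicate number as a block gave 10645 called genes, against 10374 without it, and 6 members either way. Deviations of same-numbered libraries correlated at −0.006 over 16269 genes. The labels do not say whether same-numbered libraries shared an animal or a culture. Called genes ranged from 8163 to 10943 over the alternatives and called members from 4 to 6 (8731 to 10943 and 5 to 6 over left-out libraries).

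With a pseudocount of 0.1, the replicate 1 log2 ratios were 2.21 for Il17a, 1.73 for Il17f, 4.73 for Il22, 1.53 for Rora, 2.62 for Il23r, 1.01 for Ccr6, 3.18 for Il1r1, −0.50 for Il6ra and 0.74 for Il6st. Depth limits Il23r and Il17a most, and it is unknown for the replicate 1 pair.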
